A study of Mus musculus with 6 samples.

Results

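Fast excitation between neurons runs through AMPA receptors, glutamate-gated channels built from 4 subunits drawn from the products of Gria1, Gria2, Gria3 and Gria4. The 4 subunit genes and 4 auxiliary genes are described here: Cacng2 (stargazin), Cacng3 and Cacng8, which encode transmembrane AMPA receptor regulatory proteins (TARPs), and Shisa6, whose product holds receptors at the synapse and slows their desensitization. These 8 genes were taken by name from the 20234 genes of the deposited table of unique molecular identifier (UMI) counts. They were read in the 973 of 6000 barcodes with more than 1000 and up to 8000 detected genes and at most 40% of UMIs from the mt- genes. All 8 were present, with 17301 UMIs for Gria2, 7005 for Gria1, 3859 for Gria3, 626 for Gria4, 426 for Cacng2, 289 for Shisa6, 240 for Cacng3 and 194 for Cacng8.

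The subunits give the receptor its properties. A receptor that holds an edited GluA2 subunit, from Gria2, passes little calcium, whereas a receptor without it is calcium permeable, and Gria1 supplies the GluA1 subunit that is inserted during potentiation of CA1 synapses. TARPs carry receptors to the membrane, anchor them to the postsynaptic scaffold and slow their gating. In the hippocampus Cacng8 is known for its high expression, and AMPA receptors of oligodendrocyte precursors and astrocytes are also well described.

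The cells came from the hippocampal CA1 field of 6 male C57Bl6 mice at postnatal day 28. They were collected 6 h after 1 intraperitoneal injection of placebo (mice 1, 3 and 5) or of recombinant human erythropoietin (EPO, 5000 IU/kg; mice 2, 4 and 6). The tissue was dissociated with papain and captured by Drop-seq, which counts the 3′ ends of transcripts from single cells in droplets. The sample names also carry a D number (1 for mice 1, 2 and 3, and 2 for mice 4, 5 and 6) whose meaning is not given in the sources used here, and both treatments occur under each number. The study asked what EPO does to hippocampal cells, and the comparisons here are of the 8 genes between cell classes within mice and between EPO and placebo mice.

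The Q/R codon of the second membrane segment is the site at which the Gria2 transcript is edited and is the base of the calcium rule above, so it is shown for the 4 subunit genes with the surrounding 18 bases on each side. Each window lies in exon 11, in coding sequence, of a GENCODE transcript on the mm10 (GRCm38) genome, and is written 5′ to 3′ on the coding strand with the genomic codon in capitals.

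Gria1: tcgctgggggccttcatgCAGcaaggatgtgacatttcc

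Gria2: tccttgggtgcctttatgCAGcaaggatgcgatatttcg

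Gria3: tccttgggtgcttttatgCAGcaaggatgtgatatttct

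Gria4: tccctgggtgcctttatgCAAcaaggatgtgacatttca

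All 4 genomic codons are glutamine codons, at residue 600 of Gria1, 607 of Gria2, 612 of Gria3 and 608 of Gria4 in the transcripts used. The windows span chr11:57243076-57243114 on the + strand, chr3:80706893-80706931 on the - strand, chrX:41610247-41610285 on the + strand and chr9:4464119-4464157 on the - strand. Of the 39 bases, 3 differed between Gria2 and Gria3, 7 between Gria1 and either of these, and 5 between Gria4 and each of the others. The UMIs were counted at 3′ ends, so the counts carry no reading of editing at this codon. The genes themselves lie at chr11:57011387-57330244 (Gria1, + strand), chr3:80681450-80802835 (Gria2, - strand), chrX:41400854-41678601 (Gria3, + strand), chr9:4417896-4796234 (Gria4, - strand), chr15:77991748-78120028 (Cacng2, - strand), chr7:122670492-122769393 (Cacng3, + strand), chr7:3390683-3415648 (Cacng8, + strand) and chr11:66211725-66525964 (Shisa6, - strand).

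The mice gave 43 (placebo mouse 3) to 271 retained barcodes each, with 4088 to 4924 UMIs per barcode as the median of a mouse. Clustering without the 8 genes and without the list of related genes given below left 408 CA1 pyramidal-like, 209 other glutamatergic-like, 130 oligodendrocyte-like, 77 astrocyte-like, 47 interneuron-like, 39 endothelial-like, 35 oligodendrocyte precursor (OPC)-like, 18 microglia-like and 10 mural-like cells. The CA1 class held clusters 0, 3 and 7, whose mean log level of the CA1 markers was at least 0.5, a limit set after the levels were seen. Of the glutamatergic clusters below it, cluster 10 reached 0.47 and was led by the subiculum list (1.06), whereas clusters 2 and 5 reached 0.25 and 0.39 and had the CA1 list as the highest of 5 regional lists. These 3 clusters are called other glutamatergic-like, which says only that their CA1 markers were low. The median UMIs per cell ran from 3765 in cluster 0 to 19646 in cluster 10. Cluster 7 came only from placebo mouse 1 (17 cells) and EPO mouse 4 (28 cells) and was led by ribosomal protein genes and Gapdh. Cluster 3 held no cell of placebo mouse 1, and Hba-a1 was among the leading genes of cluster 0. In these mice 26 retained barcode sequences occurred in both placebo mouse 1 and EPO mouse 4. Their paired profiles correlated at 0.74 (median) against 0.26 for other pairs of these mice, of which the highest was 0.79, and the EPO copies held 17.1 to 31.7% of the UMIs of the placebo copies. These copies made up 6.89% of the UMIs of the CA1 pyramidal-like cells of EPO mouse 4, and without them the count of called members was the same in every comparison below that used the filter on low counts.

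CA1 pyramidal-like cells held mostly Gria2 and Gria1. Levels are given as CPM, the UMIs of a gene per 1000000 UMIs of the class in a mouse, and only mice with at least 5 cells of the class enter a mean. Gria2 was at 3659 ± 312 CPM (SD, n = 6 mice), with 3169 as the lowest, 3623 as the median and 4001 as the highest value. For Gria1 the level was 1634 ± 159 CPM, between 1435 and 1859 with a median of 1640. Gria3, whose GluA3 product pairs with GluA2 in another receptor population of these cells, reached 769 ± 79.4 CPM, between 645.8 and 880.1. The ranges of these 3 genes did not touch, so their order was the same in all 6 mice. The level of Gria4, the subunit gene of fast-spiking interneurons and of early development, was 43.7 ± 11.6 CPM and lay in the range of the auxiliary genes. A UMI marks 1 molecule, so these levels need no division by transcript length, but the efficiency of capture can differ between genes.

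**Figure D1:**
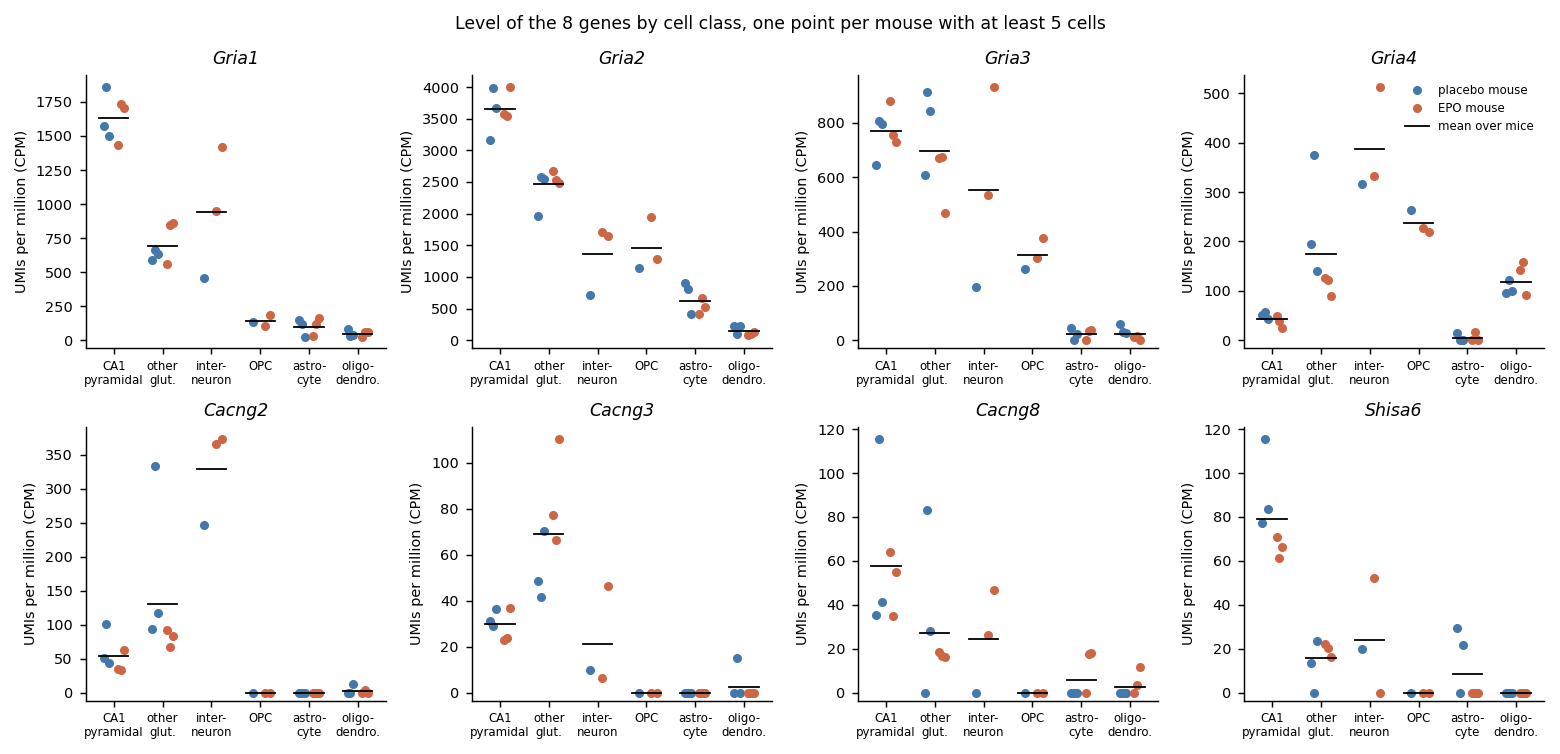
Level of each of the 8 genes in CPM (vertical axis, linear, starting near 0) by cell class, with 1 point for each mouse that had at least 5 cells of the class (blue placebo, orange EPO) and a line at the mean over mice. Gria1, Gria2, Cacng8 and Shisa6 have their highest mean in CA1 pyramidal-like cells, whereas Gria4 and Cacng2 have theirs in interneuron-like cells, at 387 and 328 CPM.

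The auxiliary genes were far lower in the same cells. Shisa6 was at 79.1 ± 19.4 CPM, between 61.3 and 115.3. Cacng8 was at 57.7 ± 30.5 CPM, between 35.0 and 115.3. Cacng2 was at 54.1 ± 25.2 CPM, between 33.8 and 100.9, and Cacng3 was lowest at 30.0 ± 5.94 CPM, between 22.9 and 36.6. The highest Shisa6, Cacng8 and Cacng2 values all came from placebo mouse 3, in which 18.6% of the retained barcodes were called doublets against 0.369 to 4.05% in the other mice, and where 10 CA1 pyramidal-like cells gave 8, 8 and 7 UMIs. Cacng2, Cacng3, Cacng8 and Gria4 overlapped in their ranges, and the lowest Shisa6 value was above the highest Cacng3 and Gria4 values.

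The other glutamatergic-like cells held less Gria1 and more Gria4 and Cacng2 than the CA1 pyramidal-like cells of the same mice. Gria1 was at 692 ± 129 CPM, between 559.1 and 860.5, and every mouse was below every value of the CA1 class. The difference on the log2 scale was -1.28 ± 0.23 (SE; edgeR quasi-likelihood test with Benjamini-Hochberg adjustment over 4453 genes, adjusted p = 7.575e-06). Gria4 was higher, at 174 ± 104 CPM, between 89.5 and 374.4, and again the classes did not overlap. Its difference was 1.72 ± 0.25 (adjusted p = 1.409e-08). Cacng2, which shares with Cacng8 the task of anchoring receptors, was at 131 ± 100 CPM with a difference of 1.01 ± 0.28 (adjusted p = 0.00565), but here the classes overlapped, since 5 mice lay between 66.5 and 117 and placebo mouse 3, with 6 cells and 8 UMIs, at 332.8. Gria2 was at 2464 ± 253 CPM, below every CA1 value, with a difference of -0.59 ± 0.25 that did not pass (adjusted p = 0.13), and Gria3 at 696 ± 162 CPM with a difference of -0.20 ± 0.22 (adjusted p = 0.692).

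Of the 5 members that passed the filter on low counts, 3 were called, against 12.7% of all genes tested. The calls depended on how the class was drawn. When cluster 5 was counted as CA1 pyramidal-like, Gria1 differed by -0.67 (adjusted p = 0.0576), Gria4 by 0.66 (adjusted p = 0.15) and Cacng2 by 0.45 (adjusted p = 0.459). With classes from the marker scores of single cells they differed by -0.63 (adjusted p = 0.0625), 0.46 (adjusted p = 0.38) and 0.01 (adjusted p = 0.996). In limma on log2 CPM the differences were as large, at -1.28, 1.81 and 1.08, but passed for none of the 3 genes (adjusted p = 0.517, 0.463 and 0.985). Cacng2 was also lost where cells had at most 20% mt- UMIs (0.80, adjusted p = 0.105). Over the 21 settings, Gria1 and Gria4 were each called in 18 and Cacng2 in 17, with adjusted p between 1.644e-06 and 0.517, 7.553e-10 and 0.463, and 0.000539 and 0.996.

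The other glutamatergic-like class was not uniform. Over all mice pooled and as a description, cluster 2 (120 cells, led by Garnl3, Tshz3 and Rxfp1, with a median of 21.7% mt- UMIs) had 648 CPM of Gria1, 186 of Gria4 and 113 of Cacng2. Cluster 5 (61 cells, led by Mef2c) had the lowest Gria1, at 340 CPM from 184 UMIs, with 203 CPM of Gria4 and 129 of Cacng2. Cluster 10 (28 cells, led by Nts, Lxn, Rxfp1 and the subiculum marker Slc17a6) was near the CA1 class in these genes, with 1170 CPM of Gria1, 16.1 of Gria4 from 10 UMIs and 30.5 of Cacng2 from 19 UMIs. Cacng3 was at 103 CPM in cluster 10, 96.0 in cluster 5 and 29.2 in cluster 2. Within the CA1 class the clusters were closer, with Gria1 between 1489 and 1820 CPM and Gria4 between 32.5 and 54.4 CPM.

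Cacng3, Cacng8 and Shisa6 did not pass the filter in the fit of all classes and were read from a fit without it. Cacng3 was higher in the other glutamatergic-like cells, at 69.1 ± 24.2 CPM with a log2 difference to the CA1 class of 1.19 ± 0.29 (edgeR, adjusted p = 0.00184). Every mouse was above every CA1 value, but the lowest, placebo mouse 3 at 41.6 CPM, rested on 1 UMI in 6 cells. Cacng8 was lower, at 27.1 ± 29.0 CPM, with a difference of -1.54 ± 0.35 (adjusted p = 0.000595), although placebo mouse 3 at 83.2 CPM from 2 UMIs lay inside the CA1 range. Shisa6 was at 15.9 ± 8.64 CPM, between no UMI in placebo mouse 3 and 23.4, and below every CA1 value, with a difference of -2.0 ± 0.33 (adjusted p = 1.629e-07). In this fit 6 of the 8 members were called, against 5.1% of 19199 genes. All 6 calls were also made with cells of more than 1500 genes.

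Interneuron-like cells stood out by Gria4 and Cacng2. These cells express Gad1, Gad2 and Slc32a1 and release GABA, and only EPO mice 4 and 6 and placebo mouse 5 held at least 5 of them (15, 9 and 14 cells). Gria4 was at 332.7, 512.1 and 316.4 CPM in these mice, a mean of 387 ± 109 CPM, and was 9.86-fold higher than in CA1 pyramidal-like cells (log2 difference 3.30 ± 0.32, edgeR adjusted p = 2.409e-16). Cacng2 was at 365.3, 372.4 and 247.2 CPM, and was 7.61-fold higher (2.93 ± 0.36, adjusted p = 3.243e-11). All 3 mice were above the highest CA1 value of either gene.

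Gria2 and Gria1 were lower in the interneuron-like cells. Gria2 was at 1716, 1653 and 721.8 CPM, below all CA1 values, with a log2 difference of -1.45 ± 0.35 (edgeR, adjusted p = 0.000864). Gria1 was at 945.9, 1420 and 454.9 CPM, again below all CA1 values, with a difference of -0.97 ± 0.31 (adjusted p = 0.0194). Gria3 was at 534.9, 931.1 and 197.8 CPM, which lay on both sides of the CA1 range (-0.51 ± 0.32, adjusted p = 0.334), and of 21 settings it was called only with marker scores (adjusted p = 0.0203), where all 5 members tested were. The call of Gria1 was lost in DESeq2 (adjusted p = 0.133), with RLE size factors (adjusted p = 0.0737) and in limma (adjusted p = 0.619). Without placebo mouse 5, whose 14 cells had the lowest Gria1, Gria2 and Gria3, the difference of Gria1 was -0.54 (adjusted p = 0.459) and that of Gria2 -0.98 (adjusted p = 0.127), whereas Gria4 (3.62) and Cacng2 (3.32) were still called. Of 21 settings, Gria1 was called in 14, with adjusted p between 0.00407 and 0.619, and Gria2 in 20, with adjusted p between 7.761e-06 and 0.127.

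Of 5 members tested, 4 were called in interneuron-like cells, against 16% of all genes, and 4 of 8 without the filter, against 5.56%. The 3 members that entered only there had few UMIs, 13 for Shisa6, 6 for Cacng8 and 4 for Cacng3 over 47 cells, and did not pass (adjusted p = 0.16, 0.3 and 0.476). In limma only Gria4 (adjusted p = 0.0208) and Gria2 (adjusted p = 0.0183) passed, and the difference of Cacng2 was 2.58 (adjusted p = 0.0991). In the other 20 settings Cacng2 was called, down to 8.408e-17.

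OPC-like cells, which express Pdgfra and Vcan and whose leading genes also included Gpr17, Bcas1 and Enpp6 of precursors on the way to oligodendrocytes, held Gria2, Gria3 and Gria4 and little Gria1. Placebo mouse 1 and EPO mice 4 and 6 had 7, 12 and 8 of these cells. Gria2 was at 1141, 1948 and 1282 CPM, a log2 difference to the CA1 class of -1.85 ± 0.37 (edgeR, adjusted p = 1.808e-05). Gria3 was at 263.3, 303.7 and 375.3 CPM (-1.70 ± 0.40, adjusted p = 0.000272). Both were below all CA1 values. Gria4 was at 263.3, 227.7 and 218.9 CPM, above all CA1 values and 4.40-fold higher (2.14 ± 0.47, adjusted p = 8.921e-05), from 6, 9 and 7 UMIs. Gria1 was at 131.6, 101.2 and 187.6 CPM from 3, 4 and 6 UMIs, a difference of -4.26 ± 0.46 (adjusted p = 4.363e-14). In limma the differences of Gria3 (adjusted p = 0.124) and Gria4 (adjusted p = 0.0885) did not pass, and both were called in the other 19 of 20 settings, down to adjusted p of 1.284e-05 and 1.318e-07.

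None of the 4 auxiliary members had a UMI in the 35 OPC-like cells. A count of 0 allows up to 3 UMIs, or 24.3 CPM over the class, so that against the pooled CA1 levels Cacng2 was at least 1.90-fold, Cacng3 at least 1.26-fold, Cacng8 at least 1.91-fold and Shisa6 at least 2.99-fold lower. The number of members called was 5 of 5, against 33.9% of all genes, and 8 of 8 without the filter, against 11.5%. Where EPO mouse 4 or EPO mouse 6 was left out, Cacng2 did not pass (adjusted p = 0.102 and 0.0971), and in the other 18 settings it did, down to 3.188e-05.

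Against oligodendrocyte-like cells, their mature descendants, OPC-like cells were higher in Gria2 and Gria3. The log2 differences were 2.68 ± 0.37 for Gria2 (edgeR, adjusted p = 4.484e-09) and 2.99 ± 0.54 for Gria3 (adjusted p = 4.412e-06). Gria4 did not differ beyond the spread, at 0.50 ± 0.44 (adjusted p = 0.513, 95% confidence interval -0.36 to 1.37). The 130 oligodendrocyte-like cells held 107 Gria4 UMIs, at 92.1 to 158.5 CPM in the 6 mice with a median of 111, and this was above the CA1 range. With total UMI scaling, which moved the median of all genes in this comparison from -0.10 to 0.50, Gria4 was at 1.16 (adjusted p = 0.0498). The 2 calls among 5 members stood against 18.2% of all genes. Gria3 did not pass with marker scores (1.01, adjusted p = 0.129) or in limma (3.15, adjusted p = 0.0514) and did in the other 18 of 20 settings, down to 2.461e-08. Gria4 was called in 1 of 20 settings, with adjusted p up to 1.

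Astrocyte-like cells held mainly Gria2. It was at 624 ± 207 CPM over 6 mice, between 415 and 909.8 with a median of 594, all below the CA1 values (log2 difference -2.61 ± 0.29, edgeR adjusted p = 3.839e-14). Against the oligodendrocyte-like cells of the same mice it was higher, by 1.92 ± 0.32 (adjusted p = 2.178e-07), and the lowest astrocyte value of 415 was above the highest oligodendrocyte value of 232.5. The endothelial-like cells, which should lack AMPA receptors, had 86.8 ± 39.4 CPM of Gria2 (n = 5 mice), between 50.3 and 139.2. Microglia-like cells were higher, at 566 CPM in placebo mouse 1 from 16 UMIs and 173.5 CPM in EPO mouse 2 from 2 UMIs. The first of these values lay inside the astrocyte range.

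The other subunits were near the endothelial level in astrocyte-like cells. Gria1 was at 100.5 ± 60.5 CPM, which overlapped the 86.3 ± 68.1 CPM of endothelial-like cells and did not pass against oligodendrocyte-like cells (0.81 ± 0.44, adjusted p = 0.146). Gria3 gave 8 UMIs and Gria4 2 UMIs in 77 cells. Gria4 was lower than in oligodendrocyte-like cells, by -4.14 ± 0.68 on the log2 scale (adjusted p = 9.828e-08). The 2 calls among 5 members stood against 34.8% of all genes in that comparison.

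Against the CA1 class all 5 members tested were lower in astrocyte-like cells, where 50.8% of all genes were called, and 8 of 8 without the filter, where 23.3% were. The log2 differences were -4.05 ± 0.33 for Gria1, -4.78 ± 0.43 for Gria3 and -2.51 ± 0.79 for Gria4. Cacng2 and Cacng3 had no UMI, which put them at least 4.41-fold and at least 2.94-fold below the pooled CA1 levels. Cacng8 gave 2 UMIs and Shisa6 3 UMIs. With cells of more than 1500 genes, Gria4 (adjusted p = 0.595) and Cacng2 (adjusted p = 0.123) did not pass. The 130 oligodendrocyte-like cells had no Shisa6 UMI, at least 20.6-fold below the CA1 level.

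**Figure D2:**
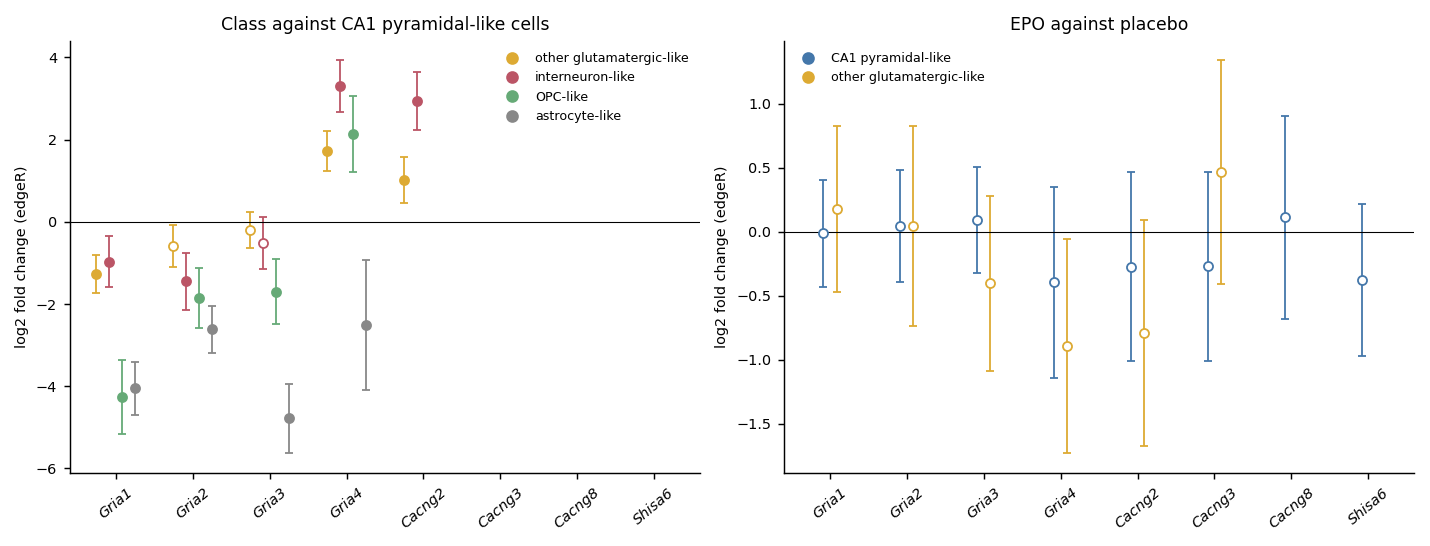
Log2 fold change of the members from edgeR (vertical axes) for 4 classes against CA1 pyramidal-like cells (left) and for EPO against placebo mice in CA1 pyramidal-like and other glutamatergic-like cells (right), with 95% confidence intervals. Filled points passed an adjusted p of 0.05 and open points did not, genes that did not pass the filter and classes without a UMI have no point, and all points on the right are open, between -0.90 and 0.46.

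The choice of scaling moved the level of all genes between classes, so the differences above are read against it. With TMM scaling, as used here, the median log2 difference of all genes was -0.04 for other glutamatergic-like, -0.16 for interneuron-like, -0.32 for OPC-like and -0.31 for astrocyte-like cells against the CA1 class, and with RLE size factors it was 0.06, 0.01, 0.03 and 0.03. The calls over all genes moved with it, from 252 higher and 314 lower to 329 and 254 in other glutamatergic-like cells, from 309 and 402 to 411 and 322 in interneuron-like cells, from 586 and 925 to 792 and 680 in OPC-like cells, and from 889 and 1374 to 1123 and 1013 in astrocyte-like cells. No called difference of a member changed its sign under TMM, RLE or total UMI scaling.

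The subunit make-up is given as shares of the subunit UMIs. Of the 20058 Gria1 to Gria4 UMIs of the CA1 class, Gria2 took 59.9 ± 1.48% (SD, n = 6 mice), Gria1 26.8 ± 1.95%, Gria3 12.6 ± 1.26% and Gria4 0.721 ± 0.198%. In other glutamatergic-like cells the Gria1 share was 17.3 ± 3.28% and lower in 6 of 6 mice. The shares of Gria3 (17.2 ± 3.07%) and Gria4 (4.29 ± 2.29%) were higher in 6 of 6 mice, and that of Gria2 was 61.2 ± 3.44%. In astrocyte-like cells Gria2 took 84.1 ± 7.84%, higher in 6 of 6 mice, with Gria1 at 12.4 ± 6.39% and Gria3 at 2.98 ± 2.34%, both lower in 6 of 6 mice. The astrocyte shares rest on 224 UMIs, with 16 (EPO mouse 2) to 76 (placebo mouse 1) per mouse. In 6 of these differences to the CA1 class all mice went the same way. A two-sided exact permutation test that flips the signs of the mice gave p = 0.0312 for each. This is the smallest p that 6 mice allow, and it became 0.0833 after adjustment over 16 tests. These 16 tests include classes of 3 mice, so no difference could pass after adjustment, even with all mice going the same way. The adjusted test therefore cannot decide whether the shares differ, and the values stand as a description.

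In the classes of 3 mice the same test cannot go below 0.25, and the shares are given as values. Interneuron-like cells had 42.6 ± 6.01% Gria2, 28.4 ± 2.65% Gria1, 15.8 ± 4.50% Gria3 and 13.2 ± 4.90% Gria4. Compared with the CA1 class, Gria2 was lower and Gria4 higher in 3 of 3 mice. OPC-like cells had 67.0 ± 7.37% Gria2, 14.9 ± 3.22% Gria3, 11.4 ± 2.98% Gria4 and 6.78 ± 2.63% Gria1, from 209 UMIs. Their Gria1 share was lower and their Gria4 share higher than in the CA1 class in 3 of 3 mice. Oligodendrocyte-like cells had 42.4 ± 11.2% Gria2 and 37.3 ± 13.6% Gria4, from 304 UMIs. A share uses UMIs of the same cells, so the scaling between classes does not enter it.

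**Figure D3:**
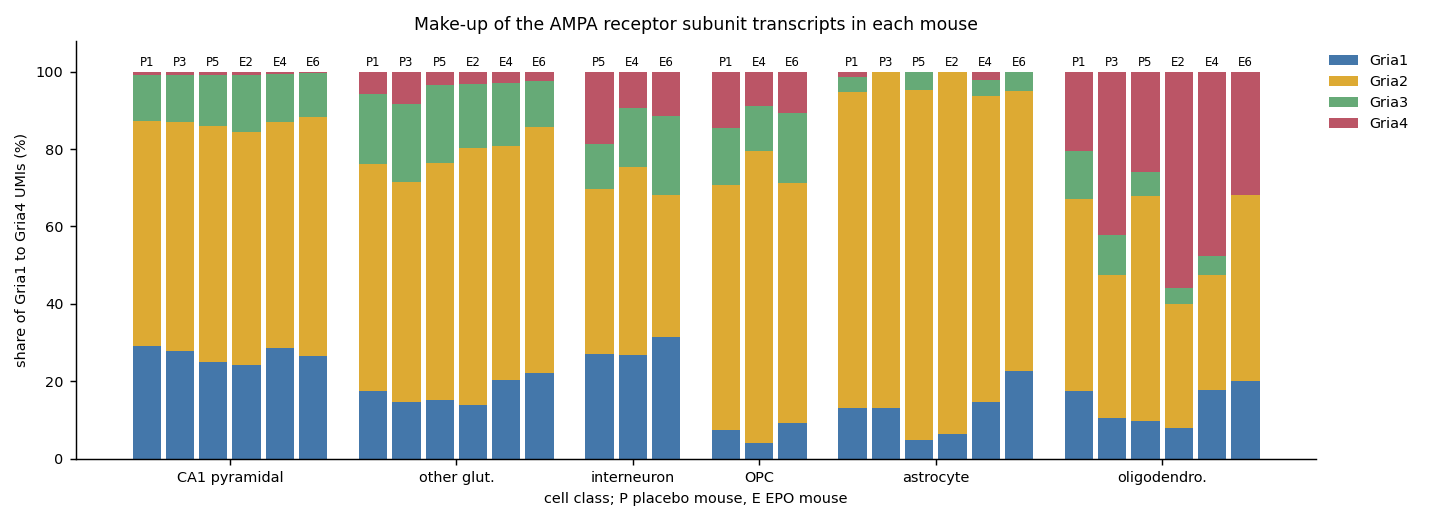
Share of each subunit gene in the Gria1 to Gria4 UMIs of a mouse (vertical axis, percent) by cell class, with 1 bar per mouse with at least 5 cells and 10 such UMIs (P placebo, E EPO, then the mouse number). The Gria4 part is 0.371 to 0.922% in the CA1 bars and 9.43 to 18.7% in the interneuron bars, and Gria2 fills 72.5 to 93.8% of the astrocyte bars.

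The single cells of the CA1 class varied around these shares. Among the 392 CA1 pyramidal-like cells with at least 10 subunit UMIs, the middle 50% held 53.8 to 66.2% Gria2 and 20 to 32% Gria1. In the 171 such cells of the other glutamatergic-like class the median Gria1 share was 9.09%, with quartiles of 4.10 and 19.2%. The quartiles cover the sampling of few UMIs as well as differences between cells.

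The share of cells with a UMI was compared after each cell was thinned to 1500 UMIs, which all 973 cells reached. Gria2 was seen in 99.0% of CA1 pyramidal-like cells (exact 95% interval 97.5 to 99.7%), 96.7% of other glutamatergic-like, 91.4% of OPC-like (76.9 to 98.2%), 85.1% of interneuron-like and 54.5% of astrocyte-like cells (42.8 to 65.9%). In endothelial-like cells, taken as background, it was seen in 7.69% (1.62 to 20.9%), at a median of 2810 UMIs before thinning against 3082 in astrocyte-like and 5534 in CA1 pyramidal-like cells. In the 130 oligodendrocyte-like cells it was seen in 16.9% (10.9 to 24.5%). In the 18 microglia-like and 10 mural-like cells it was seen in 22.2% (6.41 to 47.6%) and 30% (6.67 to 65.25%). These intervals overlapped that of astrocyte-like cells. Unthinned, the Gria2 shares were 99.8% in the CA1 class, 68.8% in astrocyte-like and 30.8% in endothelial-like cells. Gria1 was seen in 86.8% of CA1 pyramidal-like, 47.4% of other glutamatergic-like and 59.6% of interneuron-like cells. Its shares in OPC-like (20%), astrocyte-like (18.2%) and endothelial-like cells (15.4%) lay inside each other's intervals, so that these classes could not be told apart. The share in oligodendrocyte-like cells was lower (6.15%, 2.69 to 11.8%), with an interval that overlapped the endothelial one (5.86 to 30.5%).

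Gria4 was seen in 38.3% of interneuron-like (24.5 to 53.6%), 22.9% of OPC-like, 20.6% of other glutamatergic-like, 16.9% of oligodendrocyte-like and 5.64% of CA1 pyramidal-like cells (3.61 to 8.34%). It was seen in 0 of 77 astrocyte-like cells, which by the floor of 3 counts allows a share of up to 3.90% (exact 95% upper limit 4.68%), and in 0 of 39 endothelial-like cells (exact 95% upper limit 9.03%). Cacng2 was seen in 38.3% of interneuron-like, 13.4% of other glutamatergic-like and 6.37% of CA1 pyramidal-like cells, and in 0 of 35 OPC-like cells, which by the same floor allows a share of cells with a UMI of up to 8.57% (exact 95% upper limit 10%). Cacng8 and Shisa6 were seen in 8.33% and 9.56% of CA1 pyramidal-like cells and in 1.91% and 4.31% of other glutamatergic-like cells. The cells of a class come from 6 mice and are no replicates, and the intervals cover counting error only.

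**Figure D4:**
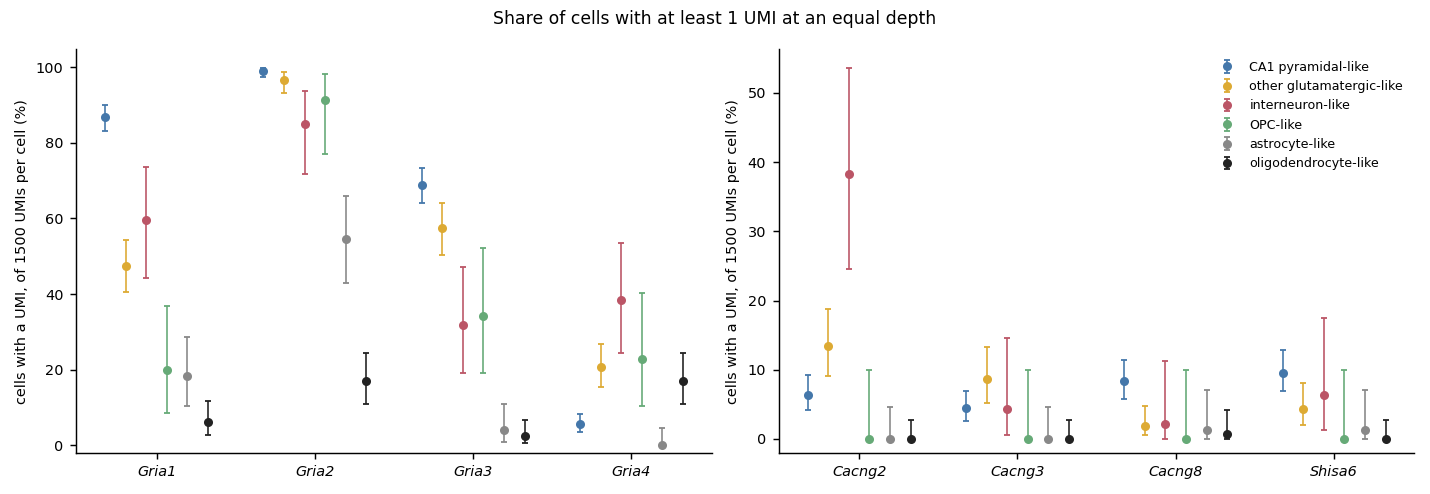
Share of cells with at least 1 UMI of each gene after each cell was thinned to 1500 UMIs (vertical axes, percent, differing between the panels) by cell class, with exact 95% binomial intervals that cover counting error only. Gria2 reaches 99.0% in CA1 pyramidal-like cells and 54.5% in astrocyte-like cells, and Cacng2 38.3% in interneuron-like cells against 6.37% in CA1 pyramidal-like cells.

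The 6 TARP genes divided their UMIs differently between classes, which is given as a description of the pooled cells. Over all mice, the 475 TARP UMIs of CA1 pyramidal-like cells were divided between Cacng8 (32.4%), Cacng2 (32.2%) and Cacng3 (21.5%), with 9.26% Cacng7 and 3.37% Cacng4. In single mice Cacng8 took 26.6 to 48.3%, Cacng2 25.9 to 37.5% and Cacng3 10.5 to 26.3%. In other glutamatergic-like cells (390 UMIs) Cacng8 took 7.44% (exact 95% interval 5.04 to 10.5%), Cacng2 38.7% and Cacng3 33.9%. The interval covers counting error only. In single mice these shares ran from 0 to 18.2%, 28.6 to 72.7% and 9.09 to 38.1%. Cacng2 took 65.7% (58.3 to 72.7%) of 178 UMIs in interneuron-like cells, where Cacng4 followed with 17.4%. In the 5 mice with at least 10 TARP UMIs, Cacng2 took 51.6 to 91.7% and Cacng4 0 to 24.4% of these cells' UMIs. In OPC-like cells 135 of 144 UMIs were Cacng4 (93.8%, 88.5 to 97.1%), at 85 to 100% in the 5 mice with at least 10 TARP UMIs. Oligodendrocyte-like cells held 38 TARP UMIs, of which 26 were Cacng7, and astrocyte-like cells 20, of which 11 were Cacng7 and 6 Cacng4. Of Cacng2, Cacng3 and Cacng8 together, the OPC-like cells held 0, the astrocyte-like cells 2 and the oligodendrocyte-like cells 5 UMIs.

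**Figure D5:**
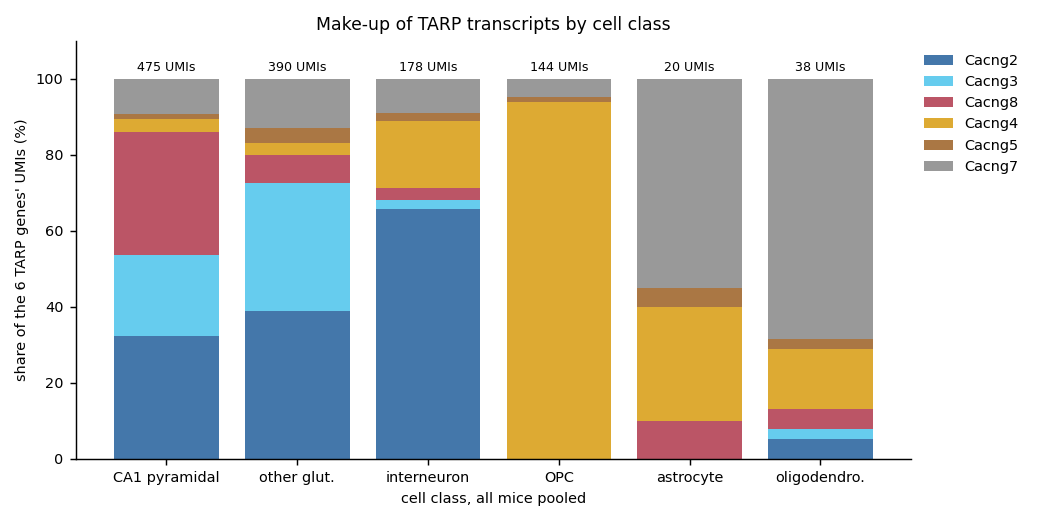
Share of 6 TARP genes in their summed UMIs (vertical axis, percent) by cell class, all mice pooled, with the number of UMIs above each bar. Cacng4 fills 93.8% of the OPC bar, and Cacng8 32.4% of the CA1 pyramidal bar against 7.44% of the other glutamatergic bar.

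The list of related genes held 44 further genes of AMPA receptor trafficking, biogenesis, scaffolding and editing and of kainate and delta receptors. Of these 42 were in the table and 17 passed the filter in the fit of all classes. In other glutamatergic-like cells 2 were higher and 5 lower than in the CA1 class (41.2% of the 17, beside 12.7% of all genes). The 5 were Cnih2, a cornichon that exports and modulates AMPA receptors (-1.55 ± 0.23, edgeR adjusted p = 8.07e-08), the neuronal pentraxin receptor gene Nptxr (-1.32 ± 0.23, adjusted p = 2.236e-06), the pentraxin Nptx1 (-1.20), the biogenesis factor gene Frrs1l (-0.77) and Olfm1 (-0.66). The higher genes were the scaffold Dlg1, or SAP97 (1.39), and the kainate receptor subunit Grik1 (2.75, from 2.41 to 22.8 CPM). The median log2 difference was -0.33 over the list and -0.04 over all genes.

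In interneuron-like cells 4 were higher and 6 lower (58.8%, beside 16% of all genes). The higher genes were Adarb2, a catalytically inactive relative of the editing enzymes, at 417.5 CPM over all mice against 1.21 in the CA1 class, Grik1 (176.9 CPM), Cacng4 (89.9 CPM) and the scaffold Grip1 (232 against 36.2 CPM). Olfm1, Nptx1, Frrs1l, Nptxr and Cnih2 were among the lower genes, with log2 differences between -3.12 and -1.30. In OPC-like cells 4 were higher, Cacng4, Adarb2, Grik1 and Dlg1, and 8 lower (70.6% in all, beside 33.9% of all genes), led by Frrs1l (-3.86), Nsf (-3.56) and Olfm1 (-3.09). Cacng4 was at 1094 CPM in OPC-like against 4.82 CPM in CA1 pyramidal-like cells and 7.04 in oligodendrocyte-like cells. In astrocyte-like cells none was higher and 11 were lower (64.7%, where 50.8% of all genes were called), among them Olfm1 (-3.76), Frrs1l (-4.56), Nsf (-3.03) and Akap5 (-4.56).

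Against oligodendrocyte-like cells, OPC-like cells had 3 higher genes of the list, Cacng4, Grik5 and Adarb2, and none lower (17.6%, near the 18.2% of all genes). Astrocyte-like cells had 1 higher, Grik5 (2.17), and 1 lower, Dlg1 (-1.61), which was 11.8% of the list and below the 34.8% of all genes. The median over the list was -0.61 in interneuron-like, -2.62 in OPC-like and -2.36 in astrocyte-like cells against the CA1 class, beside -0.16, -0.32 and -0.31 over all genes.

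After EPO none of the 8 members passed the test for a difference from placebo in CA1 pyramidal-like cells. Gria1 was at 1576, 1859 and 1500 CPM in placebo mice 1, 3 and 5 and at 1435, 1732 and 1705 CPM in EPO mice 2, 4 and 6. The log2 difference was -0.01, with a 95% confidence interval of -0.43 to 0.40. Gria2 was at 3169, 3992 and 3666 CPM in placebo and 3580, 3546 and 4001 CPM in EPO mice, a difference of 0.04 (-0.39 to 0.48). Gria3 was at 645.8, 807 and 796 CPM in placebo and 880.1, 755.4 and 728.4 CPM in EPO mice (0.09, -0.32 to 0.51). The groups overlapped for all 3 genes.

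The scarce members left wider intervals. Shisa6 was at 77.3, 115.3 and 83.6 CPM in placebo and 71.1, 61.3 and 66.2 CPM in EPO mice. The groups did not overlap, and the difference was -0.38 (-0.97 to 0.22, edgeR adjusted p = 1). For 3 mice against 3, an exact permutation test cannot go below p = 0.1 even where groups do not overlap. How many of all genes had groups without overlap was not counted, here and in the comparisons below. A lack of overlap is therefore given as a value only, and not as a difference of the member. Gria4 was at 50.2, 57.7 and 43.6 CPM in placebo and 48.1, 38.8 and 24.0 CPM in EPO mice, which overlapped (-0.39, -1.14 to 0.35). The 3 TARP members differed by -0.27 for Cacng2, -0.27 for Cacng3 and 0.11 for Cacng8, with intervals that reached -1.01 and 0.90. The adjusted p was 1 for each of the 8 members. In edgeR 0 of 7354 genes were called (0% of those tested, 98 at an unadjusted p under 0.05), and limma and DESeq2 called 0 as well, with 78 and 18 at an unadjusted p under 0.05. The same 2 tools also called 0 genes in the other classes given below, with 63 and 56 in other glutamatergic-like, 112 and 52 in all glutamatergic-like and 14 and 12 in astrocyte-like cells at an unadjusted p under 0.05.

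In the other glutamatergic-like cells 0 of 6 members tested and 0 of 4747 genes were called (edgeR, 0%, with 150 at an unadjusted p under 0.05). Gria4 was at 195, 374.4 and 140.3 CPM in placebo and 125.1, 122 and 89.5 CPM in EPO mice, so that the groups did not overlap. Its difference was -0.90 (95% confidence interval -1.73 to -0.06, edgeR adjusted p = 1). Cacng2 was at 93.1, 332.8 and 117 CPM in placebo and 92.0, 66.5 and 82.6 CPM in EPO mice, again without overlap (-0.79, -1.67 to 0.09, adjusted p = 1). Both highest values belonged to placebo mouse 3, with 6 cells and 9 and 8 UMIs. Without it the differences were -0.64 for Gria4 and -0.45 for Cacng2, in both cases with an edgeR adjusted p of 1. With the D number of the mouse names as a covariate that of either gene was -0.67. Over 21 settings the adjusted p of either gene was between 0.752 and 1.

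The make-up of the glutamatergic-like cells by cluster is given with the cells of a treatment pooled, and it varied between mice of the same treatment. Cluster 5 was 9.6% of the glutamatergic-like cells of EPO and 10.3% of those of placebo mice, cluster 2 was 21.9% and 15.7% and cluster 10, with the lowest Gria4 and Cacng2 of the 3 clusters in that class, 5.87% and 2.48%. Cluster 10 gave 10 of 29 other glutamatergic-like cells in EPO mouse 6 and none in placebo mouse 3. In the CA1 class, cluster 3 was 13.1% and 28.1%. Within mice, cluster 2 was 33.3, 25.9 and 4.67% in EPO mice 2, 4 and 6. It was 22.2, 31.25 and 9.56% in placebo mice 1, 3 and 5. Cluster 10 was 1.96, 6.02 and 9.35% in these EPO mice, and 2.22 and 2.94% in placebo mice 1 and 5. Cluster 3 was 10.8, 4.22 and 29.0% in the EPO mice, absent in placebo mouse 1, and 31.25 and 46.3% in placebo mice 3 and 5. The mice of both treatments overlapped for each of these clusters. The part of the clusters in the differences of Gria4 and Cacng2 was not tested.

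With all 617 glutamatergic-like cells together, 0 of 8 members and 0 of 8502 genes were called (edgeR, 0%, with 143 at an unadjusted p under 0.05). Shisa6 was at 56.8, 85.6 and 71.2 CPM in placebo and 52.3, 44.8 and 47.1 CPM in EPO mice, without overlap. The difference was -0.52 (95% confidence interval -1.10 to 0.05, edgeR adjusted p = 1). Gria4 differed by -0.47 (-1.18 to 0.24), Cacng2 by -0.45 (-1.18 to 0.27) and Cacng3 by 0.30 (-0.30 to 0.89). Gria1, Gria2, Gria3 and Cacng8 lay between -0.15 and -0.05. In astrocyte-like cells only Gria2 passed the filter, at 909.8, 811.9 and 415 CPM in placebo and 420.6, 666.4 and 522.3 CPM in EPO mice (-0.45, -1.31 to 0.42, adjusted p = 0.994, and -0.15 without placebo mouse 1, -0.74 without EPO mouse 4 and -0.73 without doublet calls, with adjusted p between 0.88 and 0.999 over the settings), and 0 of 695 genes were called (edgeR, 0%, with 17 at an unadjusted p under 0.05).

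The EPO difference itself was compared between the CA1 and the other glutamatergic-like class. None of the 8 members was called (4 of 7582 genes, 0.0528%, in edgeR, and 0 genes in limma and DESeq2, with 162 and 239 at an unadjusted p under 0.05), and the smallest adjusted p was that of Gria3 (0.889), whose EPO difference was 0.46 higher in the CA1 class (95% confidence interval -0.11 to 1.03). In interneuron-like and OPC-like cells too few mice of a treatment had 5 cells for a fit. The interneuron-like cells of placebo mouse 5 had 455 CPM of Gria1 and 722 CPM of Gria2, and those of EPO mice 4 and 6 a mean of 1183 and 1684 CPM, with 1 placebo mouse behind the first pair of values.

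The shares of the subunits also did not separate the treatments. In CA1 pyramidal-like cells Gria1 took 27.2 ± 2.04% in placebo and 26.4 ± 2.19% in EPO mice (n = 3 each, two-sided exact permutation test, p = 0.7), and Gria2 59.6 ± 1.41% and 60.2 ± 1.78% (p = 0.7). Gria3 took 12.4 ± 0.760% and 12.8 ± 1.80% (exact p = 0.8), and Gria4 0.836 ± 0.0999% and 0.606 ± 0.221% (exact p = 0.2). With 3 mice against 3 the smallest p possible is 0.1. Over the 8 such tests in CA1 and in all glutamatergic-like cells, the adjusted p was between 0.8 and 0.9. Within the mice of D number 1 the Gria1 share of CA1 pyramidal-like cells was lower after EPO by -4.18 percentage points, and within those of D number 2 higher by 2.49, so that the direction was not the same in the 2 sets. Of the related genes 0 of 30 were called in CA1 pyramidal-like, 0 of 26 in other glutamatergic-like and 0 of 33 in all glutamatergic-like cells.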

How the data were processed

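Single cells of the CA1 field of 3 placebo and 3 EPO mice were captured by Drop-seq. The submitters' processing notes name bcl2fastq 2.15, STAR 2.4.0 and the mm10 genome, and the counter and annotation are not given in the sources used here. The authors deposited raw UMI counts per gene and barcode, 1000 barcodes per mouse, without normalization or pooling. A missing value stood for a gene without a UMI in that mouse (25311 blocks of gene and mouse) and was read as 0. The 8 genes and the lists of markers and related genes were chosen with earlier results of these data known.

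Barcodes with more than 1000 and up to 8000 genes and at most 40% mt- UMIs were retained (973 cells, 6910600 UMIs, 204479 to 1948490 per mouse). They were clustered in Seurat 5.3.0 (R 4.3.3), with 1442 genes, 20 dimensions and resolution 1, after integration of the treatments, and 50 genes (the members and related genes) were kept out. Clusters were named from fixed markers, of which at least 3 had to be seen, and names rebuilt in this way may differ from those of the study. Doublet calls (scanpy 1.11.5, 0.369 to 18.6% per mouse) were kept, and left out in an alternative except those of placebo mouse 3. Raw counts were summed per mouse and class, and sums of at least 5 cells were tested.

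Classes were compared in 1 fit of 37 sums with the mouse as a block, and treatments over mice. Both used the quasi-likelihood test of edgeR 4.0.16 (TMM, filterByExpr with a minimum count of 10, Benjamini-Hochberg adjustment, 0.05). Fold changes are log2 values with standard errors. Sums of 1 mouse share a library. In the class fit, p-values measure how far differences between classes vary from mouse to mouse, with 1 estimate of this spread for all classes. In the treatment tests they measure the spread between mice. Shares of subunit UMIs were compared with two-sided exact permutation tests. A floor of 3 counts and exact 95% binomial intervals cover counting error only.

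The members are named in every comparison. Related genes are named where they passed, at most 5 that rose and 5 that fell in a comparison, by adjusted p, and for Gria1, Gria2, Gria4 and Cacng8 the 3 genes most correlated over the sums in log2 CPM (pseudocount 2), among genes with at least 200 UMIs. Alternatives were DESeq2 1.42.0, limma 3.58.1 on log2 CPM (pseudocount 2), other scalings, no filter, other cell limits, resolutions 0.6 and 1.4, marker scores of single cells, the D number as covariate and leaving out each mouse. Chosen after seeing the data were the limit of 0.5 on the CA1 markers and 4 alternatives: leaving out shared barcodes of EPO mouse 4, cluster 5 counted as CA1, leaving out cluster 7, and sums of at least 2 cells. Gene positions and codon windows came from the GENCODE annotation of mm10.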

Additional observations from a re-analysis of the deposited data

Results flagged for a closer look

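In 4 of 33 groups of 6 mice, a mouse lay farther from the others than Dixon's critical value of 0.625 allows, where chance flags about 1 in 20 groups. Cacng8 in CA1 pyramidal-like cells was at 115.3 CPM in placebo mouse 3, from 8 UMIs in 10 cells, and at 35.0 to 64.2 CPM in the other mice. In other glutamatergic-like cells of the same mouse, 6 in number, Gria4 was at 374.4 CPM against 89.5 to 195 CPM elsewhere, and Cacng2 at 332.8 CPM against 66.5 to 117 CPM. In placebo mouse 3, 8 of 43 retained barcodes (18.6%) were called doublets, against 0.369 to 4.05% in the other mice, and they were kept also in the setting that left out doublet calls, so that their part in these 3 values was not tested. Gria2 in other glutamatergic-like cells was at 1963 CPM in placebo mouse 1, the lowest, against 2490 to 2670 CPM in the other mice.

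The barcodes that did not pass the limits on genes and mt- UMIs enter no comparison and held 6650 UMIs of the subunit genes. Gria2 took 58.9% of them, Gria1 24.1%, Gria3 13.8% and Gria4 3.14%, beside 60.1%, 24.3%, 13.4% and 2.17% of those in retained cells. No control barcodes without cells are marked in the table, so these UMIs are given as a value only.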

How the results depend on the processing

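The single log2 differences of members were recomputed 1020 times, for 49 results under 22 alternatives. Direction and side of the threshold were kept in 965, 27 calls were lost, 2 were gained, and 26 values changed sign, none of them a value that had passed its test. The number of members called in other glutamatergic-like against CA1 pyramidal-like cells went from 3 to 6 with cells of more than 1500 genes and with no filter on low counts, where more members are tested, and to 0 in limma, with marker scores of single cells and with cluster 5 counted as CA1 pyramidal-like. In interneuron-like cells 2 were called in limma and 2 to 4 with 1 mouse left out (2 without placebo mouse 5), and 5 with marker scores, where Gria3 was gained. In OPC-like cells 3 were called in limma and 8 with no filter, and in astrocyte-like cells 8 with no filter. Against oligodendrocyte-like cells, 1 was called in OPC-like cells in limma and 1 with marker scores. The cause of these losses was not tested. The number of all genes called also moved over the settings. Against the CA1 class it was 37 to 979 in other glutamatergic-like (main fit 566) and 165 to 1068 in interneuron-like cells (711). It was 1046 to 2200 in OPC-like (1511) and 1585 to 4464 in astrocyte-like cells (2263). In OPC-like against oligodendrocyte-like cells it was 480 to 972 (809).

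Changes of sign were confined to values that had not passed. For EPO against placebo in CA1 pyramidal-like cells (log2), Cacng8 was at -0.15 in limma, -0.073 with marker scores, -0.086 without cluster 7 and -0.12 to 0.38 with 1 mouse left out. Gria1 was at 0.021 with the D number as covariate, 0.047 with no filter and -0.11 to 0.063 with 1 mouse left out. Gria2 was at -0.015 with cluster 5 added and with marker scores. Gria3 was at -0.045 with marker scores and -0.034 to 0.20 with 1 mouse left out. In all glutamatergic-like cells Gria2 was at 0.0019 with no filter, and with 1 mouse left out Cacng8 was at -0.51 to 0.21, Gria2 at -0.12 to 0.046 and Gria3 at -0.23 to 0.048. Gria2 was at 0.022 in astrocyte-like cells with marker scores, and in other glutamatergic-like cells at -0.0022 with at most 20% mt- UMIs and -0.078 to 0.15 with 1 mouse left out. Gria3 against CA1 pyramidal-like cells was at 0.17 in other glutamatergic-like cells with cluster 5 moved, and at -0.92 to 0.16 in interneuron-like cells with 1 mouse left out.

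Among the share differences in percentage points, Gria2 in other glutamatergic-like cells was at -0.806 with marker scores and -1.29 with cluster 5 moved. Gria4 in astrocyte-like cells was at 1.5 with cells of more than 1500 genes and 0.112 as a mean over cells, Gria3 in OPC-like cells at -0.756 when thinned and Gria3 in interneuron-like cells at -0.123 as a mean over cells. For EPO in CA1 pyramidal-like cells, Gria3 was at -0.190 with marker scores and Gria2 at -1.03 when thinned. With 1 mouse left out Gria1 was at -1.97 to 0.254, Gria2 at -0.260 to 1.52 and Gria3 at -0.521 to 1.24. In all glutamatergic-like cells Gria3 was at 0.662 when thinned, 0.499 as a mean over cells and -1.17 to 0.776 with 1 mouse left out, and Gria1 at -1.88 to 0.520.

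Over the settings 0 to 7 genes were called after EPO in CA1 pyramidal-like, 0 to 2 in other glutamatergic-like, 0 to 11 in all glutamatergic-like and 0 to 51 in astrocyte-like cells, and no member. The OPC comparisons and EPO in astrocyte-like cells could not be fitted with cells of more than 1500 genes. No paired analysis of EPO was possible because no mouse number occurs in both treatments. The auxiliary members had 194 to 426 UMIs each, and this depth limits what can be read from them, as do 3 mice per treatment and classes with 5 cells in only 3 mice. Counts of 3′ ends carry no reading of flip and flop exons or of editing.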

Other observations

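Over the 37 sums of mouse and class, the levels of some genes other than the 8 ran close to those of the members. These are Pearson correlations of log2 CPM over 5808 genes and are given as a description, since the sums share mice and differ in depth and cell class. Nearest to Gria1 were Snhg11 (0.94), Nsf (0.94), a gene of the related list whose product takes vesicle fusion complexes apart and binds GluA2, and Celf1 (0.90). Nearest to Gria2 were 2900011O08Rik (0.90), Rtn1 (0.89) and the synaptic vesicle gene Syp (0.89). Gria4 ran with Mfsd6 (0.87), Sulf2 (0.84) and the RNA-binding gene Elavl3 (0.84). Over these sums Elavl3 was at 709 CPM in oligodendrocyte-like and 700 CPM in OPC-like cells, against 256 CPM in the CA1 class. Sulf2 was at 700 CPM in OPC-like cells and 41.6 CPM in the CA1 class, whereas Mfsd6 was at 63.6 and 145 CPM. Cacng8 ran with Ddn, a gene of dendrites and postsynaptic densities (0.78), Osbp2 (0.78) and Epha6 (0.78).

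Among the members themselves, Cacng2 and Cacng3 (0.87), Gria1 and Gria3 (0.85) and Gria1 and Gria2 (0.82) were the most alike over these sums. Gria4 and Shisa6 (0.23) and Gria4 and Cacng8 (0.26) were the least alike.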
